A study of Mus musculus with 6 samples.

Results

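Chemokines and chemokine receptors were examined in RNA of the mouse cochlear modiolus, a bony pillar around which the cochlea winds and in which the spiral ganglion neurons (SGNs) have their cell bodies. Members were the protein-coding genes whose symbols begin with Ccl, Ccr, Cxcl or Cxcr and a digit, with Cx3c or with Ackr, together with Xcl1 and Xcr1. This gave 60 of the 21951 protein-coding genes in the GENCODE M21 annotation of the GRCm38 genome. Of the 60 genes, 45 had a transcript in the count table used here and 32 had enough counts to be tested among 14118 genes.

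All mice were labelled as C57BL/6, with no knockout allele named for either group, and the study used males that were 8 weeks old when the model was made. The 3 control libraries came from mice given saline. The 3 degenerated libraries came from mice given 1 g/kg kanamycin under the skin and 0.4 g/kg furosemide into the abdomen 30 min later, a treatment that destroys hair cells and is followed by loss of SGNs, and the study describes the transcriptome at day 30. The labels name the SGN as the cell type, but whole modiolus was used, and no source states whether 1 library stands for 1 mouse or for several.

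Chemokines are small secreted proteins that direct the migration of leukocytes, and they are classed by the spacing of their first cysteines. In CC chemokines these cysteines are adjacent, in CXC chemokines 1 residue lies between them, and CX3CL1 is a membrane-bound form with 3 residues between them. They act through receptors coupled to inhibitory G proteins, while the atypical receptors (Ackr genes) bind chemokines without that coupling and remove or hold them. In the injured cochlea, chemokines are known for drawing monocytes and macrophages to the spiral ganglion and the lateral wall.

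The coding stretch around the first cysteines is shown for the 3 ligands that were higher in every degenerated library than in any control and that DESeq2 called, since it is the part that gives each gene its class. Capitals mark the codons of the cysteine motif, which are adjacent in Ccl7 and Ccl11 and separated by 1 codon in Cxcl1. Sequences are those of the annotated transcripts on the plus strand of GRCm38, with coding base 1 at the start codon.
Ccl7, coding bases 52 to 147, chr11:82045835-82046588 across 2 exons: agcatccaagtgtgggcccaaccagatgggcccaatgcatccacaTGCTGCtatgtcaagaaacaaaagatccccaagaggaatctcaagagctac
Ccl11, coding bases 49 to 144, chr11:82058015-82061746 across 2 exons: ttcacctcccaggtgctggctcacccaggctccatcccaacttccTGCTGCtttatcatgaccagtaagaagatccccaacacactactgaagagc
Cxcl1, coding bases 52 to 150, chr5:90891362-90891549 across 2 exons: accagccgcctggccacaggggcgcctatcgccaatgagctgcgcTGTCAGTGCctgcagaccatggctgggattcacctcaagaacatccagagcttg

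Upstream sequences were taken from RefSeq (GRCm38.p6) and were found for 23 of the 32 members tested. Ccl4, Ccl5, Ccl7 and Ccl11 were among the members without one, so no motif was searched for them. The κB motif, which NF-κB proteins bind, was searched on both strands of the 250 bases before the start and was found for 5 of the 23 members, namely Cxcl1, Cxcl2, Cxcl10, Ccr1 and Ccr3. Counted by promoter, it was in 5 of the 26 promoters of these 23 members. It was in 7.25% of all 32851 promoters of that length. Cxcl1 and Cxcl2, neighbouring genes on chromosome 5 that code for neutrophil attractants, hold the same run of 11 bases, marked in capitals in the bases 120 to 21 before their starts.
Cxcl1, plus strand, chr5:90891125-90891224: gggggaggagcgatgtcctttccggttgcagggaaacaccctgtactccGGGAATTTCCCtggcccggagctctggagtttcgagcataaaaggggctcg
Cxcl2, plus strand, chr5:90903779-90903878: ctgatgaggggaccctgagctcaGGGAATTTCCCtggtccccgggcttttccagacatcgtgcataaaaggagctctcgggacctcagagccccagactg

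The run ends 61 bases before the start of Cxcl1 and 87 bases before that of Cxcl2. The AP-1 motif (TGANTCA) was found for 3 of the 23 members, Ccl27a, Ccr3 and Cxcl10. By promoter this was 3 of 26, against 6.75% of all promoters. The STAT motif (TTCNNNGAA) was found for 0 of 23 members and in 0 of 26 promoters, against 7.02%. A match is a run of letters and not a measured binding site.

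Libraries held 12480876 to 15549319 counts of the listed transcripts. Values below are CPM, counts scaled to the total of each library after TMM normalization, levels compared between genes are also divided by the length of the listed transcripts in kilobases, and differences are log2 fold changes of degenerated over control libraries with their standard error (SE). A gene was called at an unadjusted p under 0.01 and an absolute log2 fold change above 0.2 in edgeR's quasi-likelihood test. The SGN markers (9 of 10 listed) summed to 11436 to 14730 CPM in control and 6517 to 9873 CPM in degenerated libraries, with 2 called lower. The hair cell markers (6 of 6 listed) summed to 446 to 621 CPM in control and 154 to 387 CPM in degenerated libraries. Of the 5 tested, 2 were called lower, Ocm and Slc26a5. Ocm, a marker of outer hair cells, was at 140 to 173 CPM in control and 0.789 to 3.90 CPM in degenerated libraries. Otof, Pou4f3 and Myo7a had overlapping groups and were not called, with log2 fold changes of -0.56, -0.81 and 0.15. Markers of blood and marrow cells differed widely between libraries of both groups. The neutrophil markers (7 of 9 listed, none at 0) summed to 255, 13407 and 6650 CPM in control replicates 1 to 3 and to 644, 1949 and 4637 CPM in degenerated replicates 1 to 3. The monocyte, B cell and erythroid lists were also highest in control replicates 2 and 3 and degenerated replicate 3. Skeletal muscle markers summed to 332 CPM in control replicate 3 and to at most 5.45 CPM in the other libraries. The bone cell markers (4 of 7 listed) summed to 564 to 796 CPM in control and 179 to 352 CPM in degenerated libraries. The groups did not overlap in this sum, 1 bone marker was called lower, and the part of bone in the level of any member was not tested.

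Among the 32 chemokine genes tested, Ccl7 rose and Ccl6 fell. These 2 calls stand beside 2.73% of all genes tested called in either direction, 2.01% called higher and 0.715% called lower. Control and degenerated libraries did not overlap for 5 members that were higher (Ccl7, Ccl11, Cxcl1, Cxcl16 and Ackr3), beside 10.3% of all genes, and for 3 that were lower (Ccl6, Cxcr3 and Ccl27a), beside 7.37%. At an unadjusted p under 0.05 there were 4 members higher and 2 lower, against 9.68% of all genes in either direction. At an adjusted p under 0.05, edgeR called 0 members and 0 genes in all (0%), and the smallest adjusted p of a member was 0.259. DESeq2 called 3 members higher (Ccl7, Ccl11 and Cxcl1, beside 3.39% of all genes) and 1 lower (Ccl6, beside 2.17%), with 2 members at an adjusted p under 0.05, beside 2.71% of all genes. The median log2 fold change of the 32 members was 0.077 and that of all genes tested was -0.0034. The log2 fold change was above 0 in 18 members and below 0 in 14.

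**Figure D1:**
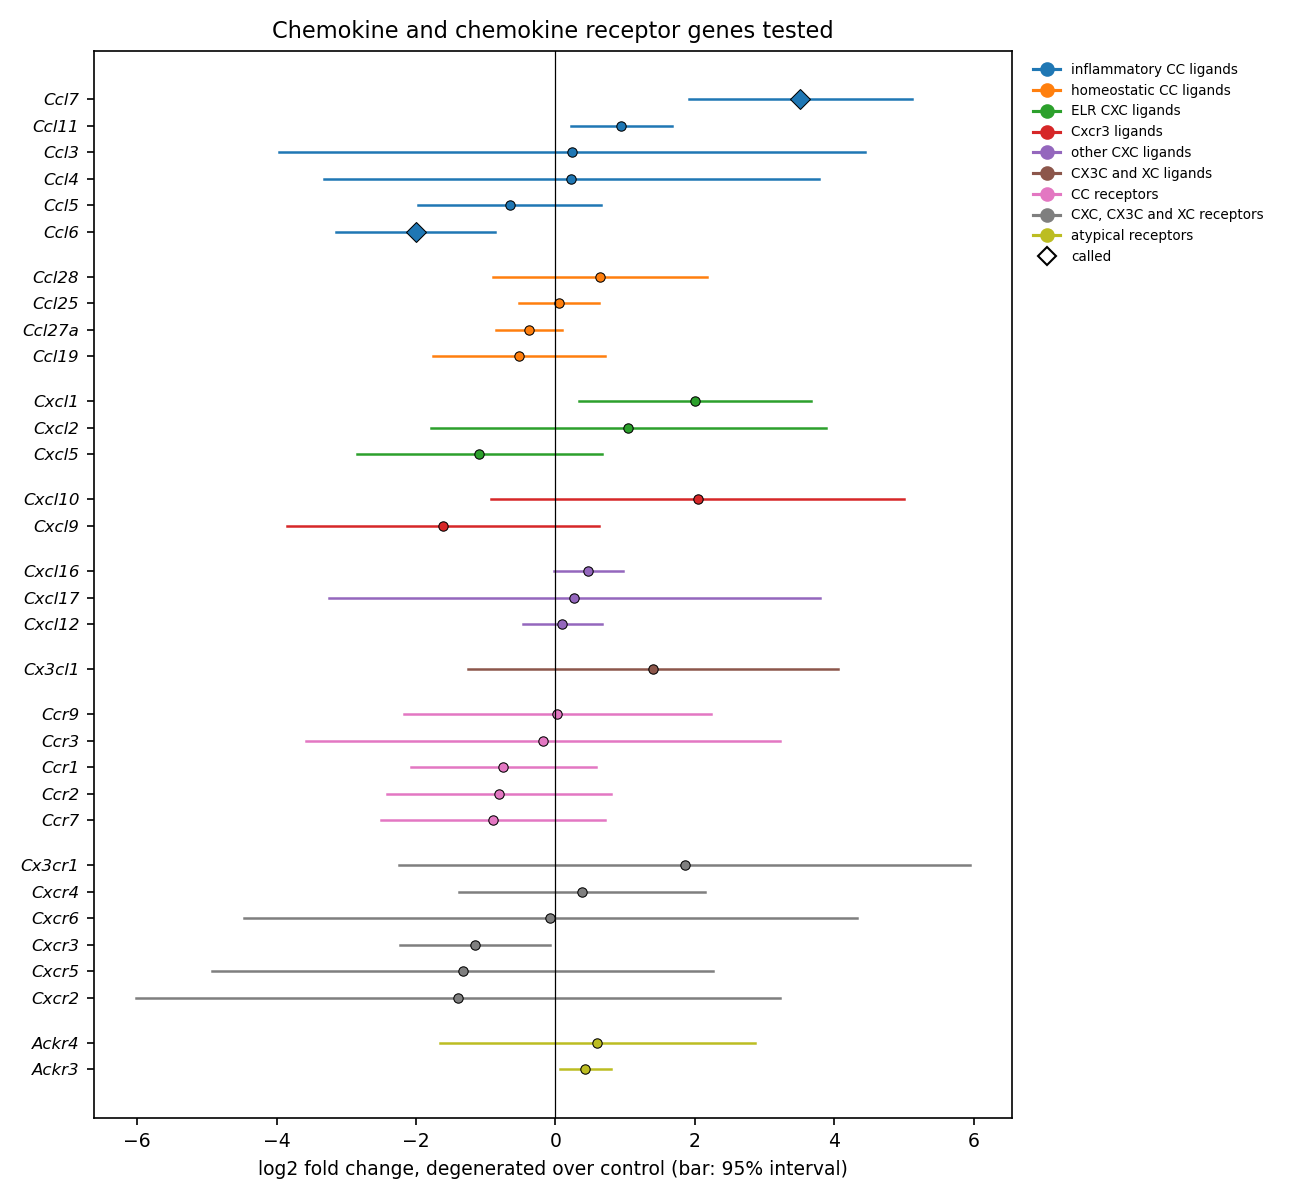
Log2 fold change of degenerated over control libraries (x axis) for the 32 chemokine and receptor genes tested (y axis, grouped by role), with bars for the 95% interval of edgeR's fit over 3 control and 3 degenerated libraries. Diamonds mark the 2 genes called, Ccl7 at 3.51 and Ccl6 at -2.0, and most receptor intervals span 0.

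Ccl7 codes for an attractant of monocytes that signals through CCR2 and CCR1, among other receptors. Its level was 2.12, 0.707 and 2.87 CPM in the control libraries and 10.8, 28.0 and 26.8 CPM in the degenerated libraries. The lowest degenerated library was above the highest control library, and the raw counts behind these values ran from 10 to 45 in controls and from 158 to 397 in degenerated libraries. This gave a log2 fold change of 3.51 (SE 0.66, 95% interval 1.91 to 5.12, adjusted p = 0.259 with edgeR), or 11.4-fold. DESeq2 gave the same log2 fold change with an adjusted p of 7.96e-06, the smallest over the alternatives, of which the largest was 0.602. Among all 14118 genes Ccl7 ranked 30th by log2 fold change and 92nd by p. Its only annotated transcript was listed, so the whole gene was counted. The gene (ENSMUSG00000035373) lies at chr11:82045712-82047525 on the plus strand. The call was made with each library left out in turn, and the log2 fold change then lay between 3.12 and 3.94.

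In RNA of a whole tissue, more cells of a type and more RNA per cell cannot be told apart. The macrophage markers (8 of 12 listed) summed to 585 to 785 CPM in control and 638 to 900 CPM in degenerated libraries. Of these markers the complement genes C1qb and C1qc were called higher, with log2 fold changes of 0.69 and 0.63 (adjusted p = 0.297 and 0.333 with edgeR). The other markers tested were not called, at 0.19 for Mrc1, -0.26 for Cd163, -0.52 for Tyrobp, -0.67 for Itgam and -1.54 for Cd68. The median log2 fold change of the 7 markers tested was -0.26. Csf1r, Adgre1, Trem2 and C1qa had no listed transcript, and Aif1 was at 15.1, 0.0707 and 16.2 CPM in control and 0.137, 0 and 0 CPM in degenerated libraries, from 4 of its 7 transcripts. The part of macrophage number in the level of Ccl7 was not tested.

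Ccl11 lies about 10 kilobases from Ccl7 on the same strand, at chr11:82057823-82062955, and codes for eotaxin, an attractant of eosinophils that acts through CCR3. It was measured at 18.1, 10.5 and 14.0 CPM in control and 34.8, 23.1 and 24.4 CPM in degenerated libraries. The groups did not overlap, with 1.93-fold between them. Its log2 fold change of 0.95 (SE 0.30, adjusted p = 0.417 with edgeR) missed the call, while DESeq2 called it, with an adjusted p of 0.107 that was the smallest over the alternatives, of which the largest was 0.667. Per kilobase, Ccl5 was the most abundant of the listed inflammatory CC ligands in control libraries, at 20.6 ± 14.7 CPM per kilobase (SD, n = 3). Ccl11 followed at 13.1 ± 3.52, a difference within the spread of Ccl5. In the degenerated libraries Ccl7 averaged 27.3 ± 11.95 and Ccl11 25.4 ± 5.94 CPM per kilobase (SD, n = 3), a difference smaller than either spread.

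Ccl12, a monocyte attractant of the same cluster on chromosome 11, had too few counts to be tested. Of its 2 annotated transcripts 1 was listed, a processed transcript. Its raw counts were 7, 4 and 0 in control and 0, 8 and 12 in degenerated libraries, and the groups overlapped. Ccl2, the neighbour that codes for the main ligand of CCR2, was not analysed here. The longest exact run that Ccl7 shares with another member is 23 bases (with Ccl2), and that of Ccl11 is 21 bases (with Ccl12).

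Ccl6 codes for a CC chemokine made by myeloid cells of the mouse. Its listed transcripts gave 4.04, 4.24 and 5.74 CPM in control and 0.752, 0.845 and 1.89 CPM in degenerated libraries. Each control library was above each degenerated one. The difference was -2.0 on the log2 scale (SE 0.47, 95% interval -3.15 to -0.86, adjusted p = 0.327 with edgeR), and DESeq2 gave an adjusted p of 0.0146, in a range up to 0.634 over the alternatives. Both listed transcripts are annotated as retained introns, and the coding transcript was not analysed here, so the value describes unspliced forms of the gene. The call was lost when any library other than degenerated replicate 3 was left out, with log2 fold changes of -2.10, -2.07 and -1.83 without control replicates 1, 2 and 3 and -1.78 and -1.82 without degenerated replicates 1 and 2. The bone cell markers (4 of 7 listed) summed to 564 to 796 CPM in control and 179 to 352 CPM in degenerated libraries, and their part in the level of Ccl6 was not tested. With the neutrophil level added as a term, its log2 fold change was -1.97, and it was called.

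**Figure D2:**
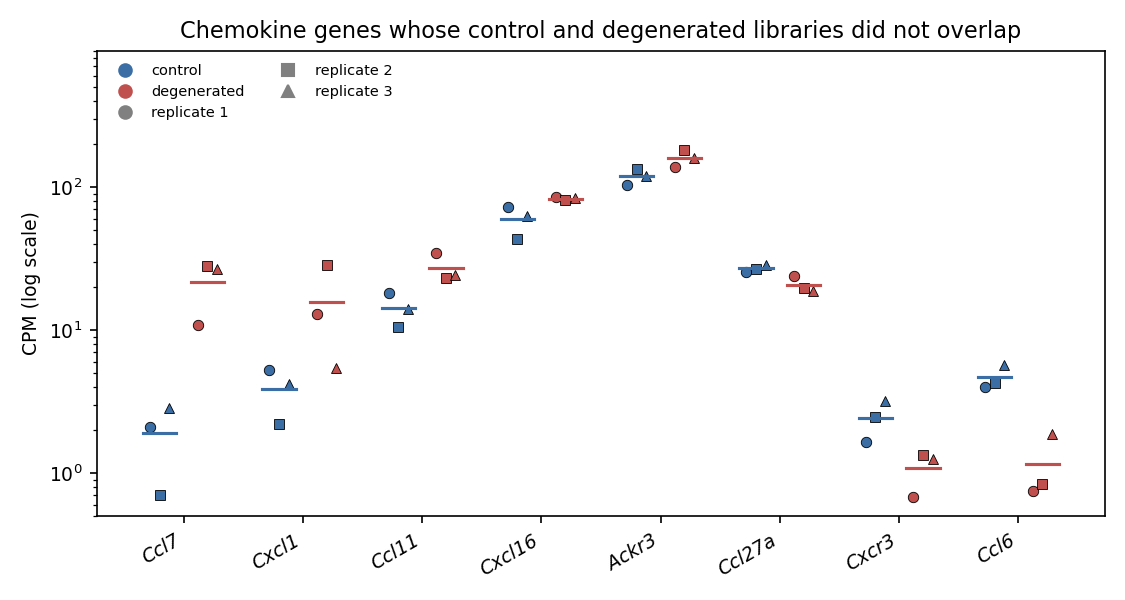
Level in CPM on a log axis (y axis) of the 8 chemokine genes (x axis) whose control (blue) and degenerated (red) libraries did not overlap, with 1 point per library and a line at the mean of each group of 3. Ccl7 and Ccl6 show the widest gap between the groups' means on the log axis among the genes that were higher and lower, and Cxcl16, Ackr3 and Ccl27a differ by less than 1.5-fold.

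The other inflammatory CC ligands that were tested attract T cells and monocytes. Ccl5 was at 6.22, 6.65 and 19.97 CPM in control and 6.43, 5.56 and 8.92 CPM in degenerated libraries (log2 fold change -0.65, SE 0.54, adjusted p = 0.749 with edgeR). Ccl3 ran from 0.265 to 19.1 CPM in control and from 1.48 to 19.97 CPM in degenerated libraries, and Ccl4 from 0.662 to 10.7 and from 0.704 to 13.1 CPM. Both genes, which were picked out after their values were seen, were high in replicate 3 of both groups and at 2.19 CPM or less elsewhere. Of the 15 inflammatory CC ligands, 10 were listed and 6 tested, with log2 fold changes from -2.0 to 3.51 and a median of 0.23.

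The homeostatic CC ligands direct the traffic of lymphocytes and are made without injury. Of 8 genes, 6 were listed and 4 tested, and none was called. Ccl27a had 25.5, 26.8 and 28.7 CPM in control and 24.0, 19.9 and 18.7 CPM in degenerated libraries (log2 fold change -0.37, SE 0.19, adjusted p = 0.602 with edgeR). The groups did not overlap, but they lay close to each other. Ccl27a shares an exact run of 210 bases with Ccl27b and overlaps Il11ra1 on the other strand, so its reads cannot be fully separated from theirs. Ccl25 was the steadiest member, at 9.65 to 11.7 CPM in all 6 libraries (log2 fold change 0.052, SE 0.24). Of this level, 4.95 to 6.98 CPM came from a transcript annotated as a retained intron. Ccl19, a ligand of CCR7, was at 4.5, 2.48 and 9.0 CPM in control and 3.28, 3.80 and 4.03 CPM in degenerated libraries, with overlapping groups (log2 fold change -0.52, SE 0.51).

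The ELR CXC ligands attract neutrophils through CXCR2. Cxcl1 was at 5.30, 2.19 and 4.21 CPM in control and 12.9, 28.6 and 5.45 CPM in degenerated libraries. Degenerated replicate 3 was only just above control replicate 1, so the absence of overlap rested on a narrow gap there. On the log2 scale the difference was 2.0 (SE 0.68, 95% interval 0.33 to 3.67, adjusted p = 0.441 with edgeR), or 4.01-fold, which missed the call. DESeq2 called the gene (adjusted p = 0.102, in a range up to 0.760 over the alternatives), and edgeR did so without degenerated replicate 3, at a log2 fold change of 2.41. Without degenerated replicate 2, its highest library, the log2 fold change was 1.22 and the gene was not called. Most of its counts came from the coding transcript, which gave 1.84 to 3.84 CPM in control and 4.58 to 25.7 CPM in degenerated libraries.

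Cxcl2, which shares the upstream run of Cxcl1, did not share its pattern across libraries. It was at 0.993, 4.39 and 9.95 CPM in control and 1.23, 8.31 and 22.3 CPM in degenerated libraries (log2 fold change 1.05, SE 1.16, adjusted p = 0.811 with edgeR). Its highest library was degenerated replicate 3, the lowest of the degenerated libraries for Cxcl1. Without that library the log2 fold change of Cxcl2 was -0.10. Cxcl5 was at 0.957 to 3.04 CPM in control and 0.237 to 1.3 CPM in degenerated libraries (log2 fold change -1.09, SE 0.72). The only listed transcript of Cxcl5 is annotated as a retained intron, so no coding transcript was counted. Cxcl3 and Cxcl15 had too few counts to be tested.

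The CXCR3 ligands are induced by interferon and attract activated T cells and NK cells. Cxcl9 was at 7.41, 7.92 and 46.6 CPM in control and 5.75, 2.89 and 11.6 CPM in degenerated libraries (log2 fold change -1.61, SE 0.91, adjusted p = 0.631 with edgeR). Control replicate 3 set the size of this difference, since the log2 fold change was -0.19 without it. Cxcl10 was at 0.132, 1.27 and 0.766 CPM in control and 7.39, 0.493 and 1.10 CPM in degenerated libraries (log2 fold change 2.04, SE 1.21, adjusted p = 0.649), and it was high in degenerated replicate 1 alone, with a log2 fold change of 0.13 without that library. In degenerated replicate 1, 5.20 of the 7.39 CPM of Cxcl10 came from a transcript annotated as a retained intron. The signs of the estimates for these 2 ligands were opposite, and the 95% intervals of both spanned 0. Their receptor gene Cxcr3, picked out after its values were seen, was at 1.65, 2.48 and 3.19 CPM in control and 0.684, 1.34 and 1.26 CPM in degenerated libraries. All degenerated libraries were below all controls, on raw counts of 25 to 50 against 10 to 19, with a log2 fold change of -1.15 (SE 0.44, 95% interval -2.23 to -0.07, adjusted p = 0.489 with edgeR). The markers of T and NK cells (9 of 9 listed) summed to 13.9 to 48.2 CPM in control and 20.3 to 41.9 CPM in degenerated libraries, and their part in the level of Cxcr3 was not tested.

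Cxcl12 and Cxcl16 were among the most abundant of the listed chemokine genes. Members without a listed transcript could not be ranked. The level of Ccl27a adds up 13 of its 19 annotated transcripts, some of them retained introns. In control libraries the highest listed members per kilobase were Ccl27a at 49.3 ± 2.25, Ackr3 at 38.8 ± 4.74, Cxcl12 at 29.4 ± 9.91 and Cxcl16 at 25.9 ± 6.19 CPM per kilobase (SD, n = 3). In degenerated libraries they were Ackr3 at 52.3 ± 7.06, Cx3cl1 at 39.0 ± 21.1, Cxcl16 at 36.1 ± 0.732, Ccl27a at 34.4 ± 6.88 and Cxcl12 at 32.2 ± 3.86, and the last 4 differed by less than the spread of Cx3cl1. Cxcl12, which holds leukocytes and progenitors in tissue through CXCR4, was at 105, 187 and 121 CPM in control and 141, 137 and 165 CPM in degenerated libraries (log2 fold change 0.10, SE 0.23, 95% interval -0.47 to 0.67). The degenerated libraries lay within the range of the controls. Its receptor gene Cxcr4 was at 2.18, 9.98 and 2.94 CPM in control and 7.05, 3.03 and 9.55 CPM in degenerated libraries (log2 fold change 0.38, SE 0.72). For Cxcr4, 1 of 2 annotated transcripts was listed, so the value covers that transcript.

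Ackr3 codes for the atypical receptor that takes up CXCL12. Its level was 104, 133 and 119 CPM in control and 139, 182 and 159 CPM in degenerated libraries. Each degenerated library was above each control library, with means of 119 ± 14.5 and 160 ± 21.7 CPM (SD, n = 3). A log2 fold change of 0.43 (SE 0.15, 95% interval 0.06 to 0.80, adjusted p = 0.456 with edgeR) missed the call. Of its 2 annotated transcripts 1 was listed, so the value covers that transcript.

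Cxcl16 codes for a membrane-bound ligand of CXCR6. It was at 72.5, 43.7 and 63.2 CPM in control and 85.0, 80.8 and 83.4 CPM in degenerated libraries (log2 fold change 0.47, SE 0.21, adjusted p = 0.546 with edgeR). The degenerated libraries were close together and all above the controls. Its receptor gene Cxcr6 was at 4.77, 0 and 7.15 CPM in control and 5.88, 0 and 5.45 CPM in degenerated libraries, where each 0 allows up to 3 counts. For Cxcr6, 1 of 2 annotated transcripts was listed. Cxcl17 ran from 0.212 to 10.8 CPM in control and from 1.74 to 19.4 CPM in degenerated libraries, and the sign of its log2 fold change (0.27, SE 1.44) depended on which libraries were used.

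Cx3cl1 codes for fractalkine, which neurons display and which binds CX3CR1 on macrophages and microglia. It was at 20.5, 109 and 7.98 CPM in control and 155, 30.2 and 178 CPM in degenerated libraries. The groups overlapped, with control replicate 2 above degenerated replicate 2, and the spread within each group was wider than for most genes. This left a log2 fold change of 1.40 (SE 1.08, 95% interval -1.25 to 4.06, adjusted p = 0.727 with edgeR). Cx3cr1 was at 4.04, 0.990 and 0 CPM in control and 0.205, 9.30 and 8.76 CPM in degenerated libraries (log2 fold change 1.85, SE 1.67, adjusted p = 0.773). For Cx3cr1, 1 of 3 annotated transcripts was listed. Without control replicate 2 the log2 fold change of Cx3cl1 was 3.08, and without any other 1 library it was 0.89 to 1.85. Ligand and receptor were both high in degenerated replicate 3, while degenerated replicate 1 held much of the former and little of the latter.

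**Figure D3:**
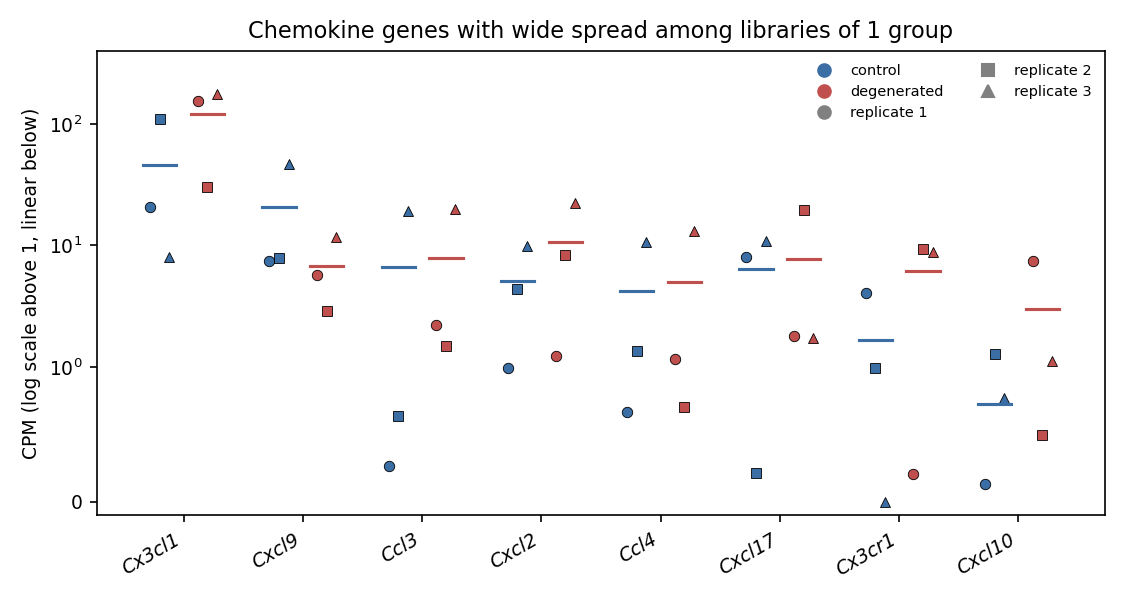
Level in CPM (y axis, log scale above 1 and linear below) of 8 chemokine genes (x axis) with a wide spread within a group, with 1 point per library (control blue, degenerated red) and a line at the mean of each group of 3. Points of both groups are mixed for each gene, and Ccl3, Ccl4 and Cxcl2 are highest in replicate 3 of both groups.

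The CC receptors mark leukocytes that answer to these ligands. Of 11 genes, 8 were listed and 5 tested, with a median log2 fold change of -0.75 and none called. Ccr1, found on neutrophils and monocytes, was at 21.2, 74.5 and 72.2 CPM in control and 21.5, 30.1 and 48.5 CPM in degenerated libraries (log2 fold change -0.75, SE 0.54, adjusted p = 0.708 with edgeR). Control replicate 1 was as low as the lowest degenerated library. Ccr2, the receptor of inflammatory monocytes for CCL7 and CCL2, was at 9.20, 39.9 and 19.0 CPM in control and 9.92, 7.32 and 21.7 CPM in degenerated libraries (log2 fold change -0.81, SE 0.65, adjusted p = 0.744). Its groups overlapped, and 1 library could move the value, to -0.12 without control replicate 2 and to -1.40 without degenerated replicate 3. Ccr7, which brings dendritic cells and lymphocytes to lymph nodes, was at 6.16, 13.9 and 11.2 CPM in control and 1.85, 4.93 and 10.1 CPM in degenerated libraries (log2 fold change -0.89, SE 0.66).

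The levels of Ccr1, Ccr3, Ccr7 and Ccr2, itself on the monocyte list, ran beside the blood and marrow markers. Ccr9 did not, at 5.43, 7.71 and 0.702 CPM in control and 7.39, 1.83 and 4.89 CPM in degenerated libraries. Cxcr6 and Cx3cr1 did not follow these markers either. Ccr1 and Cxcr5 took the 6 libraries in the same order as the summed neutrophil markers, from control replicate 1 at the bottom to control replicate 2 at the top. This order was held by 2 of the 32 members tested, and its share among all genes was not counted. In 9 of the 32 members tested (Ccr1, Ccr2, Ccr3, Ccr7, Cxcr2, Cxcr5, Cxcl9, Ccl4 and Ccl5), control replicates 2 and 3 and degenerated replicate 3 were the 3 highest libraries, beside 9.82% of all genes tested. Cxcr2, the neutrophil receptor for the ELR CXC ligands, was at 0, 2.12 and 2.62 CPM in control and 0, 0 and 1.82 CPM in degenerated libraries, so its counts came only from those 3 libraries. The other members of this set that lie outside the rule for named genes, Ccr3, Cxcr2, Cxcr5 and Ccl4, were picked out after their values were seen.

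With the neutrophil marker level as a term in edgeR's fit, an alternative added after the data were seen, the log2 fold change of Ccr1 was -0.39 in place of -0.75. The same term left Ccl7 at 3.51 and called, and gave 0.88 for Ccl11 and 1.92 for Cxcl1, neither of them called. Ccr1 keeps the library order of the neutrophil sum, so a smaller value for it was likely from the outset. The part of neutrophils in the level of these genes was not tested.

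**Figure D4:**
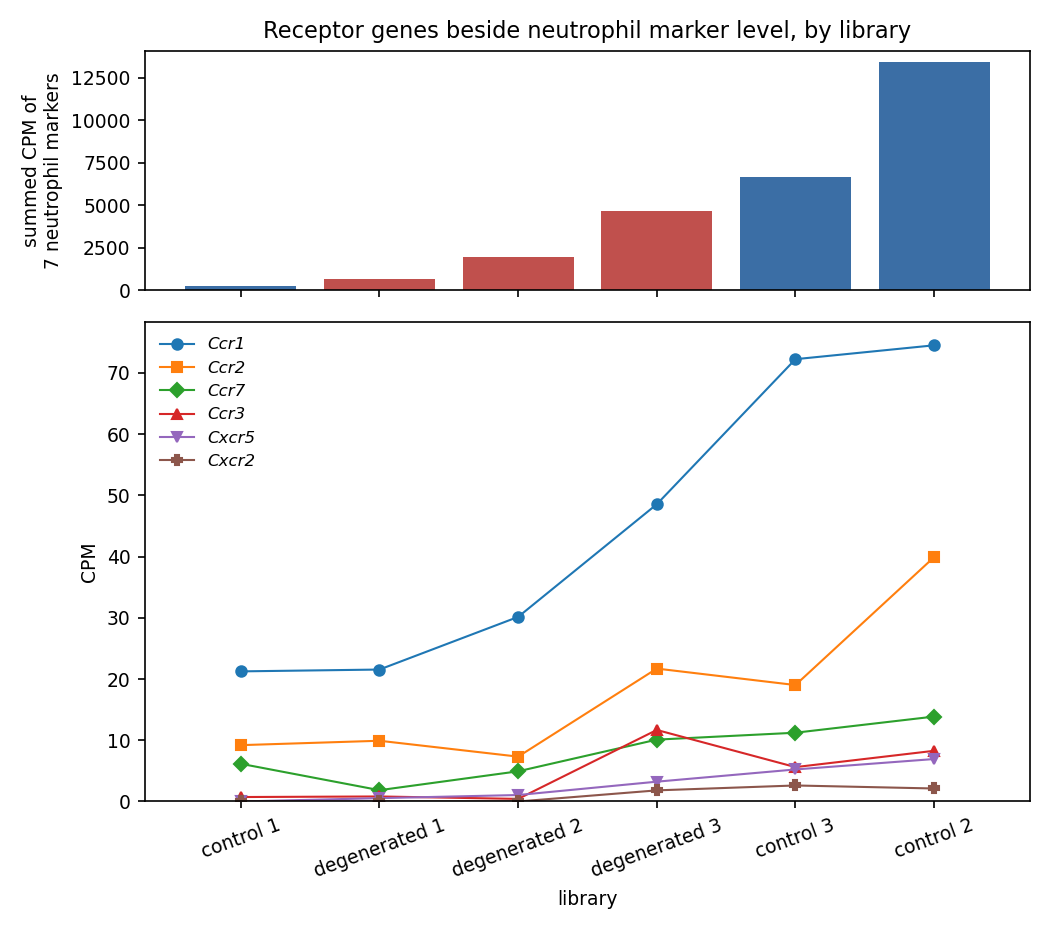
Summed CPM of 7 neutrophil markers (upper panel, bars from 0, control blue and degenerated red) and CPM of 6 receptor genes (lower panel, 1 line per gene) in each of the 6 libraries, set in the order of the marker sum along the x axis. Ccr1 and Cxcr5 keep that order, and all 6 receptors are higher in the 3 libraries on the right than in degenerated replicate 2. The 6 receptors were chosen because those 3 libraries were their highest.

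Cxcr5, the receptor of B cells for CXCL13, also showed different transcripts in the groups. Transcript Cxcr5-201 was at 0, 6.72 and 5.04 CPM in control and 0 in all 3 degenerated libraries. Transcript Cxcr5-204 was at 0.547, 1.06 and 3.24 CPM in degenerated libraries and at no more than 0.0707 CPM in controls. The count of the gene joins both, and the difference between transcripts was not tested. The B cell markers (5 of 7 listed) summed to 14.1, 361 and 92.3 CPM in control and 44.2, 47.3 and 209 CPM in degenerated libraries, and their part in the level of Cxcr5 was not tested.

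The spread of the chemokine genes among libraries of 1 group was large. Their median SD within groups was 0.892 on the scale of log2(CPM + 0.5), against 0.361 for all genes tested, and 26 of the 32 members were above the latter value. Ccl25, Ccl27a, Ackr3, Cxcl16, Cxcl12 and Ccl11 were the 6 members below it. All 6 averaged above 10 CPM. The members were not matched for level with all genes tested, and the part of level in their spread was not tested. Ccl3, Cxcr6 and Cxcl17 had the widest spread, at 2.22, 2.11 and 2.01.

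The 13 members that were listed and not tested held 0 to 37 counts over the 6 libraries. Ccl26 had 0 counts, which allows up to 0.0347 CPM over all libraries at a floor of 3 counts and covers counting error only. Ccl1 had 2 counts, and Ackr1, the atypical receptor of red cells and venules, had 4. A further 9 (Ackr2, Ccl12, Ccl20, Ccl24, Ccl27b, Ccr4, Ccr8, Cxcl3 and Cxcl15) had 13 to 37 counts. Differences in these genes were not detectable from the counts of their listed transcripts. For Ackr1, Ccl1 and Ccl12 the only listed transcript was annotated as a processed transcript, so no coding transcript was counted. The 15 members with no transcript in the table used here, which were not analysed, were Ccl2, Ccl8, Ccl9, Ccl17, Ccl21a, Ccl21b, Ccl22, Ccr1l1, Ccr6, Ccr10, Cxcl13, Cxcl14, Cxcr1, Xcl1 and Xcr1.

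Beside the members, 62 genes of the pathway were taken, not all of which act downstream of the receptors. They ran from other ligands and receptors, such as Pf4, Mif, Ccrl2 and Fpr1, to G proteins, arrestins, kinases, small GTPases and NF-κB and STAT factors. Of these, 55 were listed and 51 tested, 2 rose and 0 fell, against 2.01% and 0.715% of all genes. At an unadjusted p under 0.05, edgeR's test gave 4 higher and 0 lower, beside 9.68% of all genes in either direction, and DESeq2 called 2 higher and 0 lower, beside 3.39% and 2.17%. The median log2 fold change of the list was -0.025, with 24 genes above 0 and 27 below.

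Stat3, a transcription factor activated by cytokine receptors and JAK kinases, was at 198, 216 and 218 CPM in control and 362, 351 and 332 CPM in degenerated libraries (log2 fold change 0.73, SE 0.09, adjusted p = 0.138 with edgeR). Gnai3, an inhibitory G protein subunit of the kind that chemokine receptors couple to, was at 281, 282 and 310 CPM in control and 367, 388 and 403 CPM in degenerated libraries (log2 fold change 0.41, SE 0.10, adjusted p = 0.327). Neither gene's groups overlapped. Gnb1, a subunit of the same G proteins, had a log2 fold change of 0.58 (SE 0.17, adjusted p = 0.398) and Rock1, a kinase of the actin cytoskeleton, one of 0.30 (SE 0.10, adjusted p = 0.456), and both missed the call.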

How the data were processed

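Whole modiolus RNA was sequenced in 3 control and 3 degenerated libraries, grouped by the labels. The authors aligned reads with Hisat2 and used StringTie for expression, whereas the submitters' processing notes name Bowtie 0.12.2 and the builds mm8 and mm10. The annotation and the counting step are not given in the labels or the paper. The authors deposited raw counts per Ensembl transcript, without normalization. The table lists 65535 transcripts, or 46.0% of those annotated, and 65272 (99.6%) matched GENCODE M21. The rest, with 0.125% of counts, was left out. Listed transcripts were added up per gene, although the test had been planned for a table of genes, so a partly listed gene is covered in part and a shift between transcripts can change its count. Control libraries totalled 15154155, 14418480 and 15549319 counts and degenerated ones 14841769, 14262782 and 12480876. Strand was not stated, so Ackr4, Ccl25, Ccl27a, Ccr9, Cx3cr1, Cxcl10, Cxcl16 and Cxcr5 cannot be separated from genes that overlap them on the other strand.

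The test was edgeR's (version 4.0.16, R 4.3.3) robust quasi-likelihood test after filterByExpr and TMM (factors 0.983 to 1.02), without covariates and with Benjamini-Hochberg adjustment over the 14118 genes tested. Calls needed an unadjusted p under 0.01 and an absolute log2 fold change above 0.2. The SE is the log2 fold change over the square root of F. With 3 libraries against 3, an exact permutation test cannot go below a two-sided p of 0.1, and none was used. No source says that libraries came from separate animals, so p-values measure the spread between these libraries, which may be technical. The steps were tested on simulated data.

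Alternatives were DESeq2 1.42.0, limma-voom (limma 3.58.1), 2 other normalizations (RLE, upper quartile), 2 other filters (none, a mean count of 10), genes with every transcript listed, the replicate number as a block, and leaving out 1 library at a time. The neutrophil term was chosen after seeing the data. Members and lists were chosen with earlier results of these data known. Genes named were members called by edgeR or DESeq2, those the paper names, the 3 with the highest mean CPM in each role group at a mean count of 10, and the pairs Cxcl12 and Cxcr4, Cx3cl1 and Cx3cr1, Ccl2 and Ccr2, and Cxcl16 and Cxcr6. Cxcl11, annotated as a polymorphic pseudogene, was left out. The values of 1 member are not reported here.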

Additional observations from a re-analysis of the deposited data

How the results depend on the processing

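Ccl7 was called higher under every alternative run. The members called higher were 1, and 3 with DESeq2 (with Ccl11 and Cxcl1), 2 among genes with every transcript listed (with Ccl11, log2 fold change 0.94), and 1 to 2 with 1 library left out, 2 being reached without degenerated replicate 3. The members called lower were 1, and 0 among genes with every transcript listed, where Ccl6 was not tested, and 0 to 1 with 1 library left out. All genes called higher were 284, and 479 with DESeq2, 82 among genes with every transcript listed, of which 3470 were tested, 160 with the replicate block, and 144 to 339 with 1 library left out. Leaving out control replicate 2 gave 185, control replicate 3 gave 171, degenerated replicate 2 gave 144 and degenerated replicate 3 gave 179. All genes called lower were 101, and 306, 53 and 58 in the same order, and 76 to 158 with 1 library left out, control replicate 1 giving 158. The cause was not tested. Pathway genes called higher were 2, and 1 among genes with every transcript listed, of which 5 were tested, 1 with the replicate block, and 1 to 2 with 1 library left out, 1 being reached when control replicate 2 or any degenerated replicate was left out.

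The log2 fold change turned its sign for some members whose groups overlapped. With 1 library left out it ran from -0.27 (degenerated replicate 1) to 1.61 for Ackr4, from -0.87 to 0.081 (control replicate 3) for Ccl19, from -0.94 to 0.11 (control replicate 3) for Ccl5, from -0.0048 (control replicate 2) to 0.13 for Ccl25, from -0.071 (control replicate 1) to 0.38 for Cxcl12, from -0.10 (degenerated replicate 3) to 1.97 for Cxcl2, from -1.85 (degenerated replicate 2) to 0.89 for Cxcl17, which was also at -0.30 without control replicate 2, and from -0.66 to 0.67 (control replicate 3) for Cxcr6, which was also at 0.080 and 0.50 without control replicate 1 and degenerated replicate 2. With the replicate block it was -0.76 for Cxcl17. With no change of sign, it was 3.60 for Cx3cr1 without control replicate 1, 1.35 for Cxcr4 without control replicate 2 and -1.62 for Ccr7 without degenerated replicate 3. Deviations from the group mean correlated at 0.154, -0.0891 and 0.0674 between libraries of the same number. Between libraries of unlike numbers they correlated at -0.270 to 0.230. With 3 libraries in a group, these values cannot tell whether the replicate numbers pair the libraries. The block left the member calls at 1 higher and 1 lower.

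Low counts of the listed transcripts limit the 13 members listed and not tested, with at most 37 counts each. They also limit genes such as Cxcr3 and Ccl6, where a library held 10 to 90 counts. The totals cover the listed transcripts only.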
